A study of Caenorhabditis elegans with 6 samples.

Results

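The genes described here build and anchor the contractile apparatus of the body wall muscle of the nematode Caenorhabditis elegans. They were chosen as a list of 38 rows out of the 46659 in the deposited table of read counts, covering thick and thin filaments, the troponin complex, giant kinases, attachment to the matrix and calcium channels, without genes known only from the pharynx. All 38 passed the filter on low counts and are among the 17365 genes tested, and the lowest count of any of them in any library was 304. RNA was taken from embryos of dot-1.1(knu339); ced-3(n1286) double mutants, 3 libraries, and of ced-3(n1286) single mutants, 3 libraries, which the labels call biological replicates. Both genotypes carry the ced-3 mutation, which affects the caspase of programmed cell death, and they differ by the labels in dot-1.1, the worm counterpart of the histone H3 lysine 79 methyltransferase DOT1L. Eggs were released from synchronized egg-laying adults grown at 20 °C on E. coli OP50 by dissolving the adults in alkaline hypochlorite. The labels do not give the stage of the embryos or what the knu339 allele does to its gene.

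In a muscle sarcomere, thick filaments of myosin pull on thin filaments of actin. Calcium, admitted by membrane channels and released from internal stores, acts through troponin and tropomyosin to permit contraction. In the body wall of the worm the thin filaments end in dense bodies and the thick filaments are held at M-lines. Integrins join both structures to the basement membrane, so that the pull reaches the cuticle. Mutants of many of these genes are uncoordinated (unc) or arrest as paralysed embryos partway through elongation (pat).

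Library totals ran from 66316445 to 75279479 counts in double mutants and from 68832040 to 77957224 in single mutants. The 38 genes held 1.47% to 2.11% of all counts in double mutants and 1.17% to 1.54% in single mutants. Levels are CPM, counts scaled to a fixed library total with TMM factors. Genes are ranked by level as CPM per kilobase of annotated exon. Ratios between genes and sums over genes are in CPM unless stated, without regard to length, and serve only to compare genotypes. The RNA comes from whole embryos. More muscle cells, more RNA per muscle cell and RNA of the same genes from other cells therefore cannot be told apart in any result below. Muscle identity was represented by the transcription factor genes hlh-1, the worm MyoD, at 26.1, 31.8 and 28.4 CPM in double mutants and 28.5, 31.2 and 36.1 CPM in single mutants, and unc-120, the worm serum response factor, at 40.9, 63.8 and 70.7 CPM in double mutants and 60.9, 53.4 and 86.9 CPM in single mutants. The ranges of both genes overlapped between genotypes, and their log2 fold changes of -0.15 ± 0.15 and -0.20 ± 0.24 (SE) did not pass the test (adjusted p = 0.697 and 0.751, edgeR).

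Most body wall muscle genes lay above 0 in log2 fold change, double mutant over single mutant, and few passed a test. Without a term for the replicate number, 34 of 38 had a log2 fold change above 0, against 47.9% of all tested genes. The median log2 fold change of the 38 was 0.27, against -0.016 over all tested genes. In this fit 0 of 38 passed at an adjusted p under 0.05 (edgeR), where 0.0806% of all tested genes were called higher and 0% lower. At an unadjusted p under 0.05, 10 members were higher, against 7.57% of all tested genes, and 0 were lower, against 4.5%. DESeq2 without the replicate number called 0 members, against 1.93% of its tested genes called higher and 0.449% called lower. Libraries of the same number in the 2 genotypes deviated together, so a second fit compared the genotypes within numbers (the replicate block). With it, 5 of 38 members rose and 0 fell, where 2.57% of all tested genes were called higher and 1.45% lower. At an unadjusted p under 0.05 in the blocked fit, 24 members were higher and 0 lower, against 11.6% and 12.9% of all tested genes. DESeq2 with the block called 12 members higher and 0 lower, against 6.35% and 6.52% of its tested genes. The 5 called by edgeR were unc-22, unc-89, myo-3, unc-15 and lev-11, and their fold changes lay between 1.39 and 1.84. The blocked calls changed with the pairs used. Without pair 1, 0 members were called, among 11 genes called in either direction over the whole table, while 34 members lay above 0 with a median of 0.23. Without pair 2, 20 members were called higher, among 2476 of 17436 tested genes called, 1361 higher and 1115 lower. Without pair 3 the 3 members unc-15, unc-22 and unc-89 were called, among 181 of 17533 tested genes called in either direction.

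**Figure D1:**
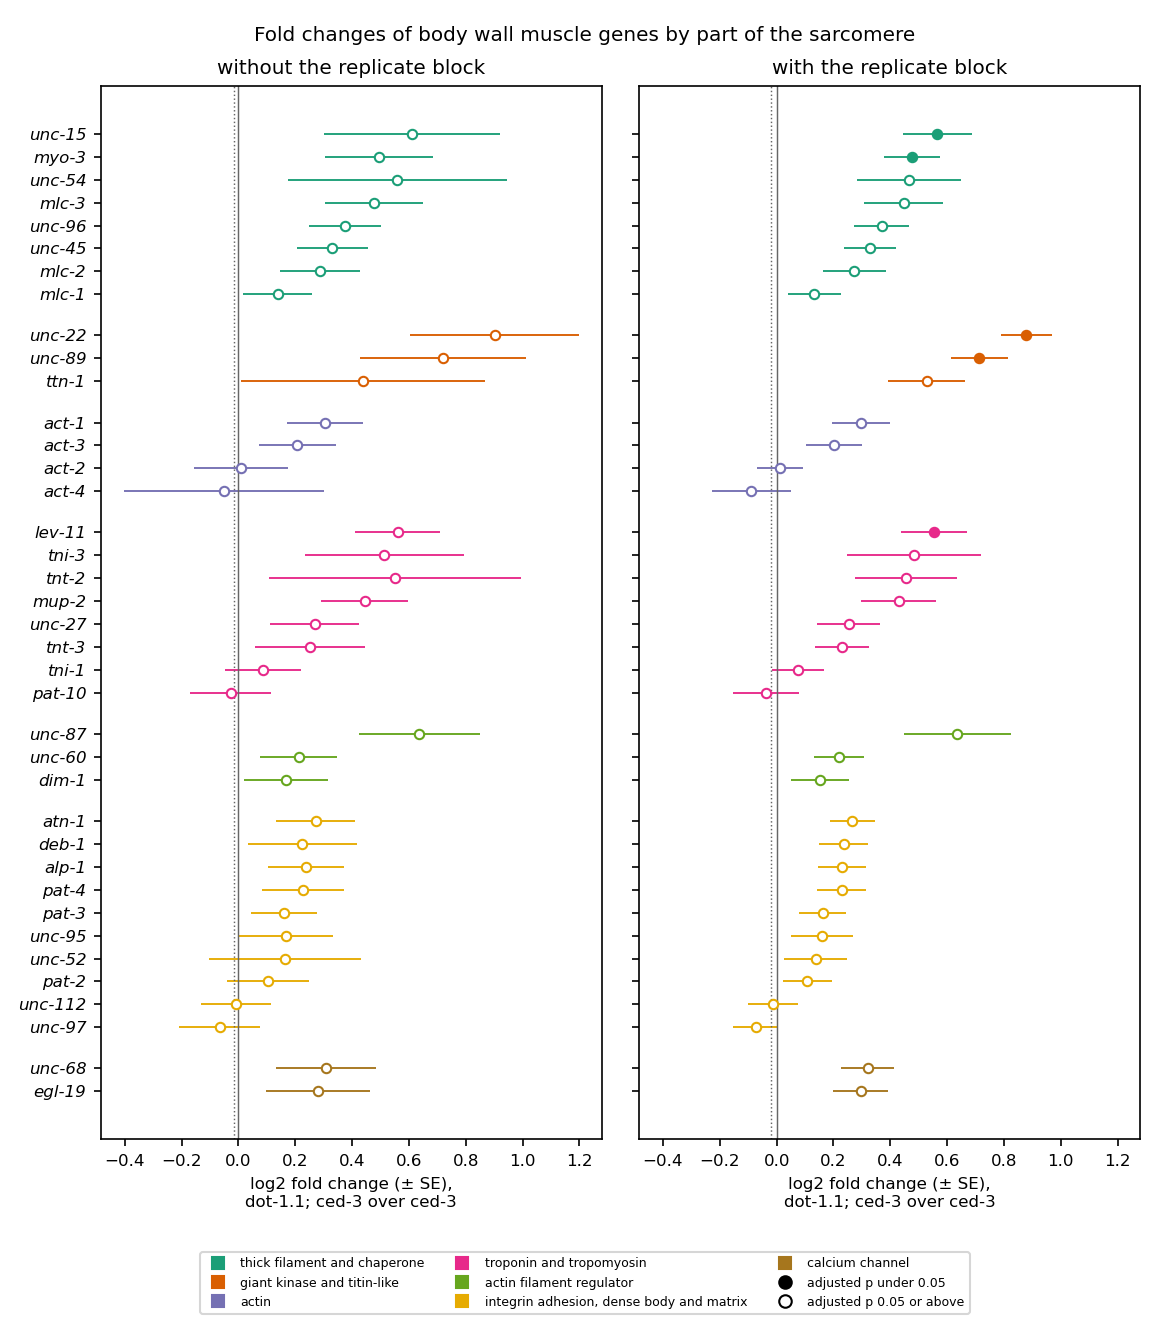
Log2 fold change (± SE) of each of the 38 genes, dot-1.1; ced-3 over ced-3, on the x axis, by part of the sarcomere (colour), without the replicate block on the left and with it on the right; filled points have an adjusted p under 0.05 (edgeR) and the dotted line is the median of all tested genes. In both panels 34 genes lie above 0, and 5 points are filled, all in the right panel.

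In 8 members, unc-87, lev-11, unc-45, pat-3, mlc-3, act-1, mup-2 and unc-96, the groups did not overlap, with every double mutant library above every single mutant library, 21.1% of the 38 against 10.6% of all tested genes, and 0 had the reverse, against 7.91%. Of these, only lev-11 was called with the block. The other 4 called genes had overlapping groups, since replicate 2 of the double mutants was below at least 1 single mutant library, and were higher in the double mutant within each of the 3 pairs. In all, 24 members were higher in 3 of 3 pairs and 0 were lower in 3 of 3, against 22.5% and 25.3% of all tested genes. By pair, 35 of 38 were higher in pair 1, 26 in pair 2 and 34 in pair 3, against 47.9%, 47.5% and 49.9% of all tested genes.

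The giant proteins of the sarcomere stood highest of the 7 parts, the 3 genes having medians on the log2 scale of 0.72 without and 0.71 with the block. The gene unc-22 (ZK617.1, chromosome IV, 11972697 to 12011007 of WBcel235, minus strand) codes for twitchin, a kinase of the thick filament region with many immunoglobulin-like domains. It was at 1331, 647 and 846 CPM in double mutant replicates 1 to 3 and at 674, 377 and 461 CPM in single mutant replicates 1 to 3. Replicate 1 was the highest and replicate 2 the lowest in both genotypes, and double mutant replicate 2 lay below single mutant replicate 1. With the block unc-22 rose 1.84-fold (log2 fold change 0.88 ± 0.089 SE, adjusted p = 0.00459, edgeR), higher in 3 of 3 pairs, while without it the log2 fold change of 0.90 ± 0.30 had an adjusted p of 0.317. Exons of unc-22 share 130 bases with ZK617.7 and 39 bases with ZK617.26 on the same strand, out of 23368 bases of exon.

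The gene unc-89 (C09D1.1, chromosome I, 4035702 to 4090885, plus strand) codes for the worm obscurin, a giant protein of the M-line. It was at 2242, 1165 and 1443 CPM in double mutants and at 1259, 667 and 1019.8 CPM in single mutants. As with unc-22, replicate 2 was lowest in both genotypes and the groups overlapped. It rose 1.64-fold with the block (0.71 ± 0.10 SE, adjusted p = 0.0145, edgeR) and had an adjusted p of 0.389 without it. The third gene, ttn-1, codes for a titin-like protein of the I-band and is described after its values were seen. It was at 2662, 1276 and 2182 CPM in double mutants and at 2024, 669 and 1822 CPM in single mutants. The log2 ratios of its pairs were uneven, at 0.40, 0.93 and 0.26 in pairs 1 to 3, and the gene did not pass the test (0.53 ± 0.14 SE, adjusted p = 0.0696 with the block, and 0.695 without).

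Thick filament genes came next. All 8 lay above 0, the median of their log2 fold changes was 0.43, and 2 of the 8 rose with the block. The gene myo-3 (K12F2.1, chromosome V, 12226817 to 12234343, minus strand) codes for myosin heavy chain A, which sits at the centre of the thick filament. It was at 1893, 1185 and 1639 CPM in double mutants and at 1199, 945 and 1207 CPM in single mutants, so that only double mutant replicate 2 fell within the range of the single mutants. It rose 1.39-fold with the block (0.48 ± 0.098 SE, adjusted p = 0.0430, edgeR), and without the block the adjusted p was 0.368. Paramyosin, the protein of the thick filament core, is encoded by unc-15 (F07A5.7, chromosome I, 7376604 to 7383197, minus strand), which was at 485, 226 and 265 CPM in double mutants and at 264, 153 and 222 CPM in single mutants. The value of replicate 1 of the double mutants stood far above the other 5. The gene rose 1.48-fold with the block (0.57 ± 0.12 SE, adjusted p = 0.0464, edgeR), and without the block its adjusted p was 0.469. Both calls are close to the threshold, and with RLE in place of TMM scaling in the blocked fit myo-3 had an adjusted p of 0.0528 and unc-15 an adjusted p of 0.0549.

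The major body wall myosin heavy chain B, encoded by unc-54, behaved less evenly than myo-3 and is given after its values were seen. It was at 1713, 683 and 729 CPM in double mutants and at 885, 489 and 748 CPM in single mutants. In pair 3 it was slightly lower in the double mutant, and it passed in neither fit (0.47 ± 0.18 SE, adjusted p = 0.189 with the block, and 0.574 without). Within a library, unc-54 stood to myo-3 at 0.905, 0.576 and 0.445 in double mutants and at 0.738, 0.517 and 0.620 in single mutants, overlapping ranges of CPM ratios. Without double mutant replicate 1 the unblocked log2 fold change of unc-54 was -0.012.

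Among the light chains, mlc-2 (C36E6.5, chromosome X, 17455792 to 17456586, minus strand), a regulatory light chain, had the highest level per length of the thick filament genes. It was at 294, 219 and 301 CPM in double mutants and at 217, 225 and 226 CPM in single mutants, with replicate 2 of the double mutants inside the range of the single mutants (0.27 ± 0.11 SE with the block, adjusted p = 0.178, edgeR; 0.455 without). Its neighbour mlc-1 codes for a nearly identical light chain, so reads of the pair may be split uncertainly. The essential light chain gene mlc-3 was nearly level in single mutants, at 201.7 ± 2.70 CPM, and at 281 ± 70.1 CPM in double mutants (SD, n = 3 each), with no overlap and an adjusted p of 0.112 with the block (edgeR). The myosin chaperone gene unc-45 and the M-line gene unc-96 had log2 fold changes of 0.33 and 0.37, also with no overlap between genotypes, and adjusted p of 0.0799 and 0.0692 with the block (edgeR).

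**Figure D2:**
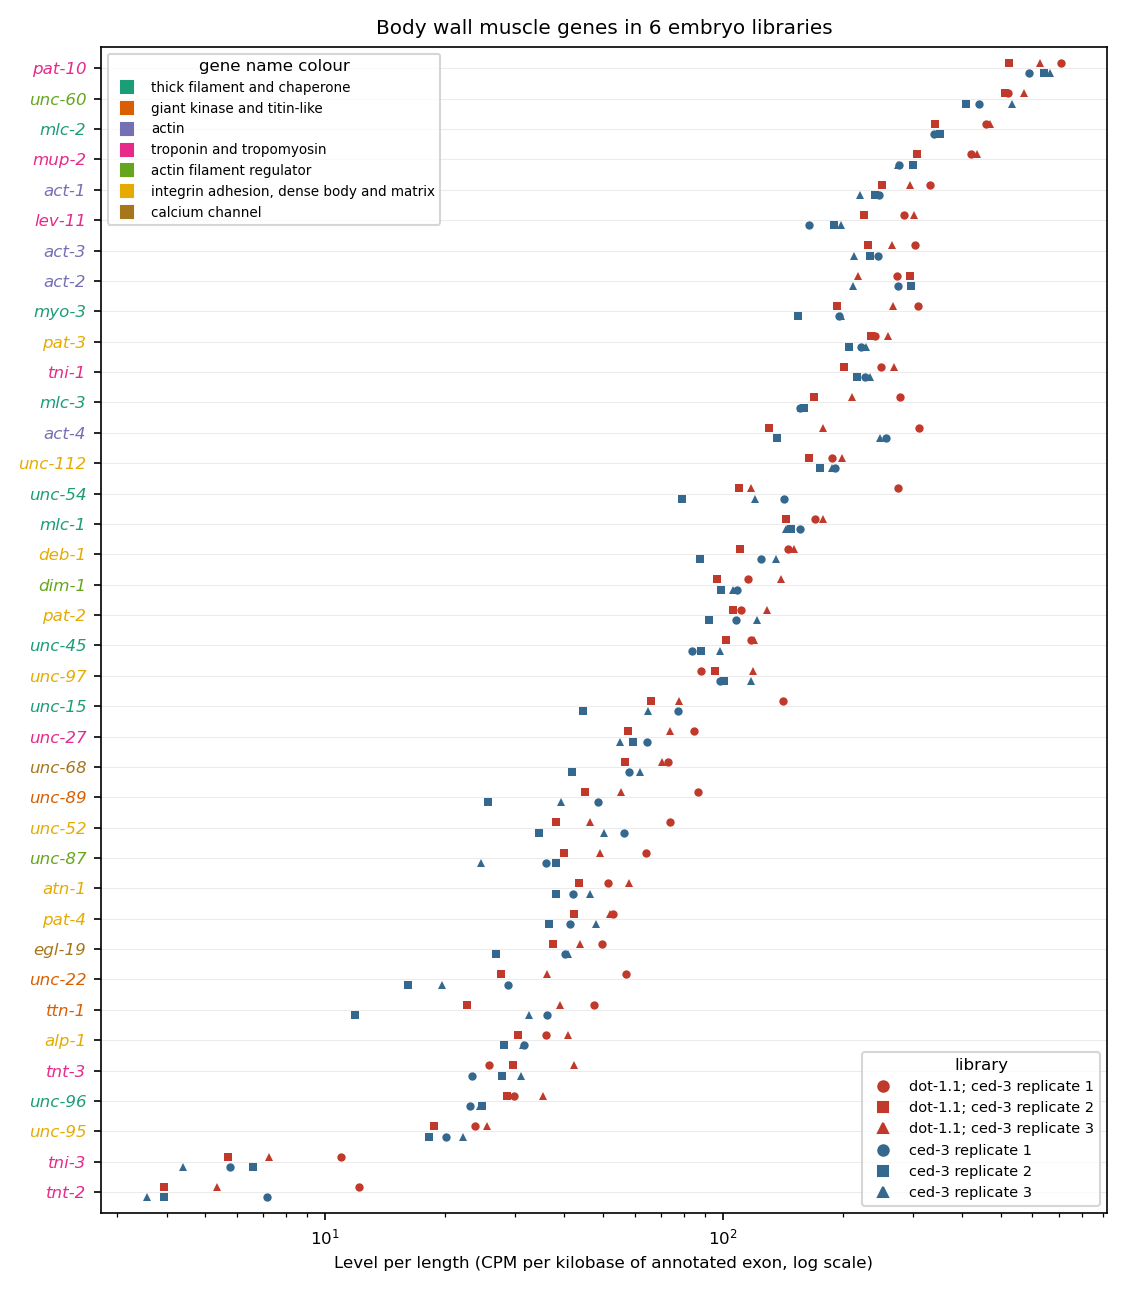
Level of each of the 38 genes in each library as CPM per kilobase of annotated exon on a log x axis, with dot-1.1; ced-3 libraries above ced-3 libraries in each row and a marker shape for each replicate; gene names are coloured by part of the sarcomere. From pat-10 at the top to tnt-2 at the bottom, genes are in the order of their mean in double mutants, and squares (replicate 2) are the lowest double mutant value in 35 of 38 rows.

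Among the 8 troponin and tropomyosin genes 7 lay above 0, the median of their log2 fold changes was 0.36, and 1 rose with the block. That gene was lev-11 (Y105E8B.1, chromosome I, 14621169 to 14631094, minus strand), which codes for tropomyosin, the strand that lies along actin and gates the access of myosin. It was at 681, 539 and 722 CPM in double mutants and at 391, 454 and 471 CPM in single mutants, with no overlap. It rose 1.47-fold with the block (0.55 ± 0.12 SE, adjusted p = 0.0438, edgeR). Without the block its adjusted p of 0.224 was the lowest of the 38 genes. The annotation gives lev-11 20 transcripts, and a count per gene does not show which of them changed.

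Troponin C of the body wall, the calcium sensor of the thin filament, is encoded by pat-10 (F54C1.7, chromosome I, 5018783 to 5020358, minus strand), the gene with the highest level per length of all 38. It was at 694, 512 and 612 CPM in double mutants and at 576, 628 and 649.5 CPM in single mutants. The single mutant range lay wholly inside that of the double mutants, and the log2 fold change was -0.036 ± 0.12 with the block (adjusted p = 0.881, edgeR; 0.952 without). The ratio of lev-11 to pat-10 in CPM was 0.981, 1.05 and 1.18 in double mutants and 0.679, 0.724 and 0.726 in single mutants, with no overlap, a ratio picked after its values were seen. Per kilobase of exon, lev-11 averaged 272 and pat-10 619 CPM in double mutants. Among troponin T genes, which tie the complex to tropomyosin, mup-2 was at 567 ± 103 CPM in double mutants and 417 ± 21.0 CPM in single mutants (SD, n = 3 each; adjusted p = 0.103 with the block, edgeR). The troponin T gene tnt-2 and the troponin I gene tni-3 had the lowest levels per length of the 38, at 7.15 ± 4.39 and 7.98 ± 2.72 CPM per kilobase in double mutants and 4.88 ± 1.98 and 5.58 ± 1.12 CPM per kilobase in single mutants (SD, n = 3 each). The remaining 3 genes, tnt-3 for troponin T and tni-1 and unc-27 for troponin I, the inhibitory subunit, had log2 fold changes between 0.09 and 0.27 without the block.

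Actin genes stood lowest of the 7 parts, the 4 genes having a median of 0.11 on the log2 scale, and 0 of 4 passed in either fit. The gene act-1 (T04C12.6, chromosome V, 11081052 to 11082415, plus strand) was at 419, 317 and 373 CPM in double mutants and at 311.5, 306 and 279.9 CPM in single mutants (0.30 ± 0.10 SE with the block, adjusted p = 0.125, edgeR; 0.413 without). Its lowest double mutant value, in replicate 2, was just above the highest single mutant value. The genes act-1, act-2 and act-3 lie together on chromosome V between 11071690 and 11082415 and code for nearly identical actins, which other cell types also use, so their counts may share reads. Summed into 1 row, they had a log2 fold change of 0.18 ± 0.095 (SE) with the block (adjusted p = 0.298, edgeR). The fold changes nevertheless differed within the cluster, at 1.01 for act-2 and 1.15 for act-3 without the block, a difference that was not tested. On chromosome X, act-4, named after its values were seen, was at 499, 209 and 286 CPM in double mutants and at 413, 218 and 398 CPM in single mutants. Replicate 2 was the lowest in both genotypes, and the direction of act-4 changed between pairs, with log2 ratios of 0.27, -0.065 and -0.48.

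Of the 3 regulators of actin filaments, 0 passed in either fit, and all lay above 0. The gene unc-60 (C38C3.5, chromosome V, 1475086 to 1479576, plus strand) codes for cofilin, which severs and recycles actin. It was at 374.5, 366.5 and 409 CPM in double mutants and at 317, 294 and 383 CPM in single mutants, overlapping ranges (0.22 ± 0.088 SE with the block, adjusted p = 0.176, edgeR; 0.541 without). The annotation used here lists F53E2.2, which shares 56 bases of exon with unc-60, as a gene of its own, while the table analysed has no row of that name, so the level per length of unc-60 is uncertain. The calponin-related actin bundling gene unc-87, named after its values were seen, was at 151, 94.2 and 116 CPM in double mutants and at 84.7, 89.7 and 58.3 CPM in single mutants. The groups did not overlap, and its log2 fold change of 0.64 ± 0.19 (SE) had an adjusted p of 0.121 with the block (edgeR; 0.317 without). Exons of unc-87 share 182 bases with F08B6.1 on the other strand. The thin filament gene dim-1 was at 292 ± 53.5 CPM in double mutants and 259.8 ± 12.39 CPM in single mutants (SD, n = 3 each).

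Genes of integrin adhesion, the dense body and the matrix lay closer to 0. Of these 10 genes 0 passed in either fit, and without the block their log2 fold changes ranged from -0.067 to 0.27 with a median of 0.16. The gene pat-3 (ZK1058.2, chromosome III, 3908931 to 3914149, minus strand) codes for the beta integrin that anchors both dense bodies and M-lines, and had the highest level per length of the 10. It was at 687, 671 and 741 CPM in double mutants and at 633, 591 and 651 CPM in single mutants, with no overlap but a small difference (0.16 ± 0.084 SE with the block, adjusted p = 0.283, edgeR; 0.582 without). Its partner pat-2, the alpha integrin, was at 458 ± 49.2 CPM in double mutants and 426 ± 59.2 CPM in single mutants (SD, n = 3 each). On the cytoplasmic side, unc-112, the worm kindlin, and unc-97, the worm PINCH, lay at -0.0093 and -0.067, while pat-4, the integrin-linked kinase, lay at 0.23. The LIM domain gene unc-95 had the lowest level per length of the 10 and a log2 fold change of 0.17. The dense body genes deb-1 (vinculin), atn-1 (alpha-actinin) and alp-1 (an ALP/Enigma protein) lay at 0.23, 0.27 and 0.24, and atn-1 had the lowest adjusted p of the part, 0.0903 with the block (edgeR). The matrix gene unc-52, the perlecan of the basement membrane, had a log2 fold change of 0.16 ± 0.27 (SE), with a spread between replicates of 35.4% of its mean in double mutants and 24.1% in single mutants.

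Both calcium channel genes lay above 0 and neither passed the test. The ryanodine receptor gene unc-68 (K11C4.5, chromosome V, 6901681 to 6929038, minus strand), the release channel of the internal store, was at 1182, 922 and 1137 CPM in double mutants and at 942, 675 and 1001.5 CPM in single mutants. Replicate 2 was lowest in both genotypes, and the groups overlapped through double mutant replicate 2 (0.32 ± 0.093 SE with the block, adjusted p = 0.0868, edgeR; 0.509 without). The L-type calcium channel gene egl-19 of the plasma membrane had a log2 fold change of 0.30 ± 0.097 (SE) with the block (adjusted p = 0.115, edgeR). Both genes were higher in the double mutant in 3 of 3 pairs, with the largest log2 ratios in pair 2, 0.45 and 0.48.

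**Figure D3:**
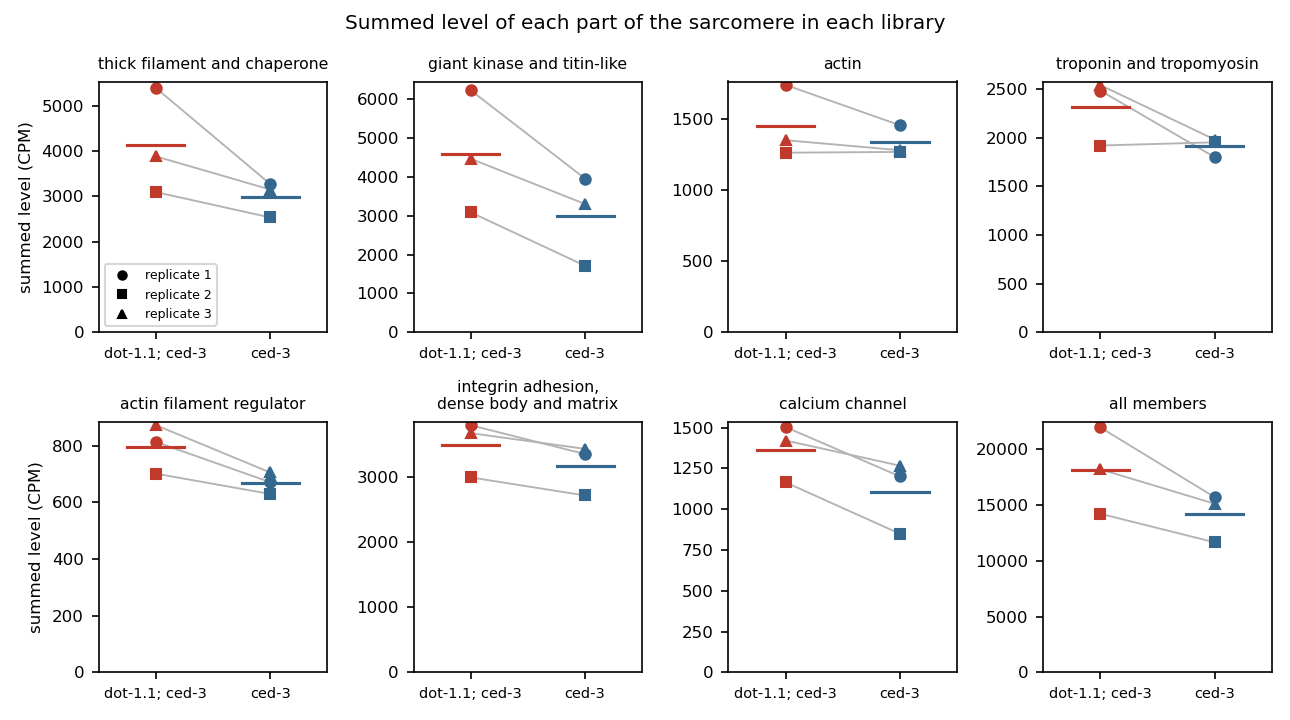
Summed level in CPM (y axis, from 0) of each part of the sarcomere and of all 38 genes, with dot-1.1; ced-3 libraries on the left and ced-3 libraries on the right of each panel; shapes mark replicates, grey lines join libraries of the same number and horizontal bars are means of 3. The giant kinase and titin-like genes average 4598 CPM in dot-1.1; ced-3 and 2991 CPM in ced-3 libraries, and the actins average 1455 CPM in dot-1.1; ced-3 and 1338 CPM in ced-3 libraries, and in each panel the groups overlap under this TMM scaling.

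Summed over its members, each part averaged higher in double mutants, and with TMM scaling the groups overlapped in all 7. Scaled by library totals alone, the groups did not overlap for troponins and tropomyosin, where the lowest double mutant value was 1977.96 CPM and the highest single mutant value 1977.94 CPM, or for regulators of actin filaments, at 722 CPM in double mutants and 704 CPM in single mutants. The giant proteins summed to 4598 ± 1577 CPM in double mutants and 2991 ± 1155 CPM in single mutants, and thick filament genes to 4125 ± 1168 CPM in double mutants and 2985 ± 396 CPM in single mutants (SD, n = 3 each). Troponins and tropomyosin summed to 2316 ± 344 CPM in double mutants and 1912 ± 97.5 CPM in single mutants, and adhesion genes to 3488 ± 431.5 CPM in double mutants and 3167 ± 392.2 CPM in single mutants (SD, n = 3 each). Regulators of actin filaments summed to 795 ± 86.9 CPM in double mutants and 668 ± 38.03 CPM in single mutants, and calcium channels to 1363 ± 177 CPM in double mutants and 1105 ± 224 CPM in single mutants (SD, n = 3 each). The actins summed to 1455 ± 254 CPM in double mutants and 1338 ± 105.1 CPM in single mutants (SD, n = 3 each). Ratios of these means ran from 1.09 for actin to 1.54 for the giant proteins, and no test was made on sums.

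The order of levels per length was much alike in both genotypes, with a Spearman correlation of 0.98 over the 38 genes, which share libraries and lengths. At the top, pat-10 was at 619 ± 92.9 CPM per kilobase in double mutants and 631 ± 38.4 in single mutants (SD, n = 3 each), and tnt-2 was at the bottom. Heavy chain A was more abundant per length than heavy chain B, with myo-3 at 258 ± 58.7 and unc-54 at 168 ± 93.8 CPM per kilobase in double mutants, and at 183 ± 24.3 and 114 ± 32.4 in single mutants. In double mutants, 34 of the 37 neighbouring pairs in this order had overlapping ranges. Genes share libraries, so an overlap of ranges does not show that a pair changes order between libraries. The giant genes unc-22, unc-89 and ttn-1 were in the lower part of the order, between 36.4 and 62.3 CPM per kilobase in double mutants and between 21.6 and 37.9 in single mutants.

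Replicate 2 was the lowest double mutant library for 35 of 38 genes and the lowest single mutant library for 21 of 38, all of which were lowest in replicate 2 of both genotypes. Over all tested genes the shares were 32.9%, 31.4% and, for both, 14.4%. As a log2 ratio to the mean of replicates 1 and 3, replicate 2 of tnt-2 lay at -1.15 in double mutants and -0.45 in single mutants. For ttn-1 the ratios were -0.92 in double mutants and -1.52 in single mutants, and for act-4 they were -0.91 in double mutants and -0.89 in single mutants. Genes with a coefficient of variation over 20% in both genotypes were act-4, tnt-2, ttn-1, unc-15, unc-22, unc-52, unc-54, unc-87 and unc-89. Troponin and tropomyosin genes differed from this, since replicate 2 was lowest for 7 of 8 in double mutants and 1 of 8 in single mutants. Adhesion genes had replicate 2 lowest for 9 of 10 in each genotype. Leaving out pair 2 left the median log2 fold change of the 38 genes at 0.30 with the block.

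**Figure D4:**
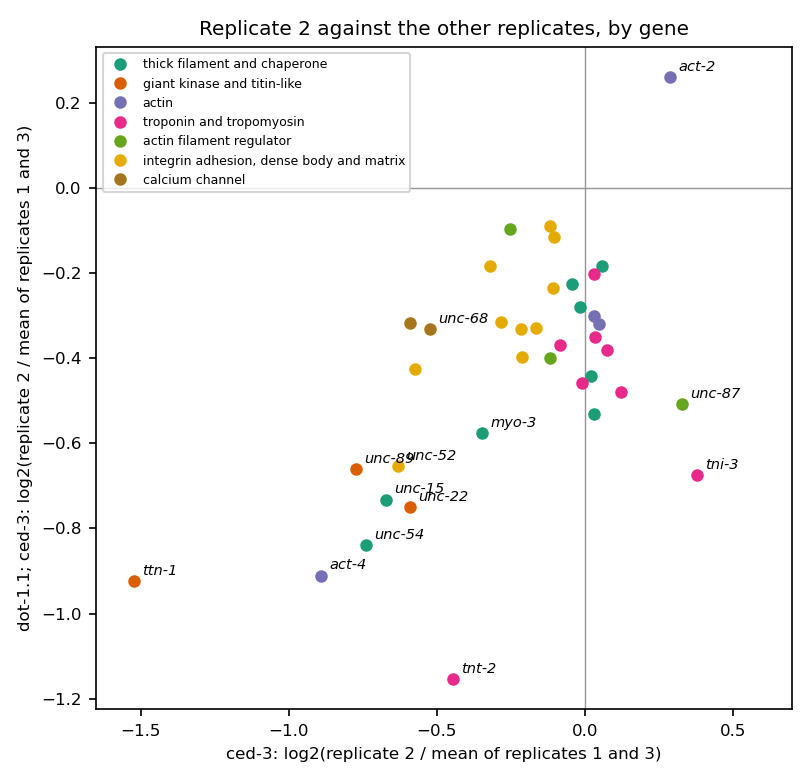
Each of the 38 genes by the log2 ratio of replicate 2 to the mean of replicates 1 and 3, in ced-3 libraries on the x axis and dot-1.1; ced-3 libraries on the y axis, coloured by part of the sarcomere. The genes ttn-1, act-4 and unc-54 lie far below 0 on both axes, act-2 lies above 0 on both, and unc-87 and tni-3 lie below 0 on the y axis only.

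Replicate 2, lowest for most muscle genes, was highest for the sum of early embryonic transcripts. A list of 22 early and maternal genes summed to 864, 1618 and 973 CPM in double mutant replicates 1 to 3 and 1402, 1588 and 1127 CPM in single mutant replicates 1 to 3, with replicate 2 the highest in both genotypes. Of its 21 tested members, 1 lay above 0, against 47.9% of all tested genes without the block. With the block 0 rose and 1 fell, against 2.57% and 1.45% of all tested genes. The gene that fell was nos-2, a gene of germ cell fate (log2 fold change -0.69 ± 0.13 SE, adjusted p = 0.0386, edgeR). A list of 17 late embryo and cuticle genes summed to 6484, 6071 and 7182 CPM in double mutants. In single mutants it summed to 6792, 5258 and 8231 CPM, and replicate 2 was lowest in both genotypes. Of the 17, 4 lay above 0 without the block, with a median log2 fold change of -0.082, and 0 passed. This list shares sqt-3, dpy-7, rol-6 and che-14 with the epidermis list, so the results of the lists are not separate. The sums of the neuron, intestine, epidermis and dystrophin complex lists, given below, were also lowest in replicate 2 of both genotypes. Those of muscle fate regulators and of pharynx genes were not. A low replicate 2 was therefore not found in muscle genes alone. The part of embryo stage in the muscle results was not tested.

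**Figure D5:**
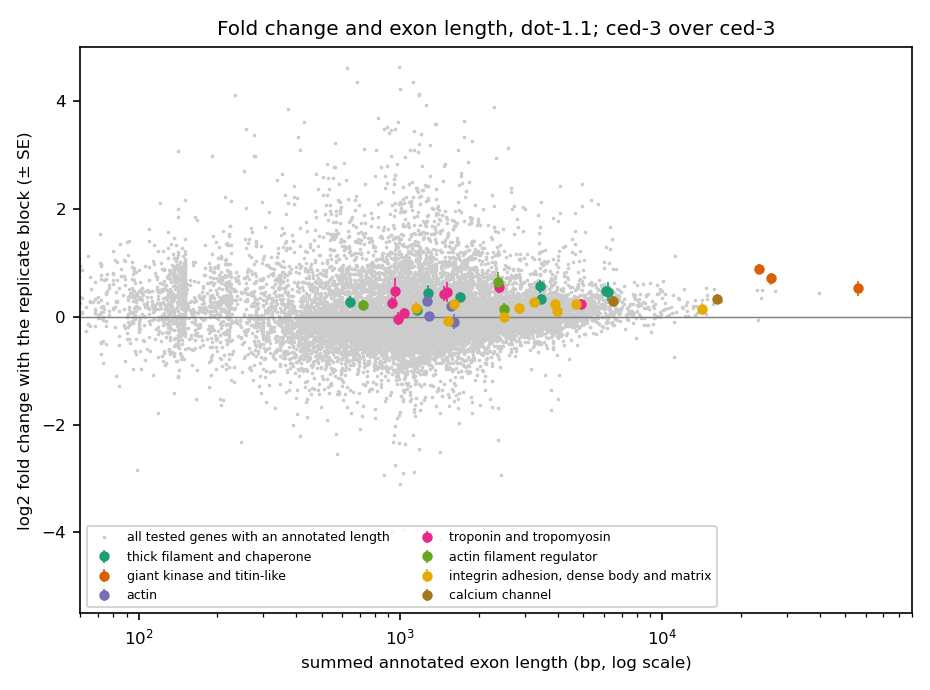
Log2 fold change with the replicate block (y axis, dot-1.1; ced-3 over ced-3) against summed annotated exon length in bases (log x axis), for 17082 tested genes in grey, of which 59 lie outside the axes, and for the 38 muscle genes in colour with SE. The 5 muscle genes of 10000 bases and above have a median of 0.53, and the 48 other genes of that length a median of 0.22.

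Fold change was also set beside exon length. Across the 38 genes, which share libraries, the blocked log2 fold change had a Spearman correlation of 0.34 with exon length and a Pearson correlation of 0.46 with its log2. Across 17044 other tested genes with a length the Spearman correlation was 0.071 and the Pearson correlation -0.014, both near 0 and of opposite sign. In the class of 10000 bases of exon and above, the 5 members ttn-1, unc-22, unc-52, unc-68 and unc-89 had a blocked median of 0.53, with 2 called higher. The 48 other genes of that class had a median of 0.22, with 10 called higher (20.8%) and 0 lower. From 5000 to 10000 bases, 39 of 329 other genes were called higher (11.9%), against 1.97% of other genes between 1000 and 2000 bases. The difference between these shares was not tested, and the part of exon length in the muscle results was not tested. By chromosome, 3 of 7 members on I, 1 of 4 on IV, 1 of 10 on V and 0 of 11 on X were called higher with the block, against 2.04%, 2.58%, 3.42% and 2.68% of all tested genes there. On II 0 of 1 and on III 0 of 5 were called, against 2.21% and 2.07%.

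Other genes of muscle and its attachment gave smaller medians. Over all tested genes 47.9% lay above 0 without the block, and with it 2.57% were called higher and 1.45% lower. Of 29 other sarcomere and attachment genes, 22 lay above 0 with a median of 0.14, and 0 passed in either fit. This list, which holds pat-6 and tln-1, also holds genes of attachment on the epidermal side, such as vab-10 and let-805. Of 20 genes of muscle excitation and calcium handling, 15 lay above 0 with a median of 0.21, and 1, tag-180, rose 1.59-fold with the block, at 41.3, 39.2 and 45.1 CPM in double mutants and 25.4, 24.98 and 28.6 CPM in single mutants (adjusted p = 0.0145, edgeR; 0.150 without). Of 10 genes of the dystrophin complex, which links the muscle membrane to the cytoskeleton, 6 lay above 0 with a median of 0.019, and 0 passed. Of 10 regulators of muscle fate, 2 lay above 0 with a median of -0.19, and 0 passed. The regulators summed to 551, 559.5 and 582 CPM in double mutants and 547, 473 and 614 CPM in single mutants, overlapping ranges. Most of this sum was egl-27, a chromatin regulator gene and 1 of the 2 above 0, at 402, 361 and 410.5 CPM in double mutants and 349, 273 and 390 CPM in single mutants, so the sum does not show the other members.

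Muscle of the pharynx, the feeding organ, has its own myosins. A list of pharynx genes is given beside the body wall genes, and the difference between the lists was not tested. It also holds genes not of the sarcomere, such as pha-4, marg-1, pqn-75 and phat-5, so its counts and sums are not those of muscle alone. Of 11 tested genes 9 lay above 0 with a median of 0.52 without the block, where ceh-22 lay at -0.13 and pha-4 at -0.006. With the block 4 rose and 0 fell, against 2.57% and 1.45% of all tested genes. These were the myosin heavy chain genes myo-1 (2.73-fold), myo-2 (3.18-fold) and myo-5 (2.39-fold), and tnt-4, coding for troponin T (1.93-fold), with adjusted p between 0.00427 and 0.0218 (edgeR). The list of 12 summed to 1703, 995 and 1140.3 CPM in double mutants and 724.5, 659.5 and 571 CPM in single mutants, with no overlap, while the 38 body wall genes summed to 21970.5, 14230.1 and 18216 CPM in double mutants and 15712, 11667 and 15122 CPM in single mutants and overlapped through replicate 2 of the double mutants.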

How the data were processed

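Total RNA of whole embryos was depleted of ribosomal RNA and made into strand-specific libraries, per the labels' protocols. The authors deposited 1 table of raw read counts per gene for all 6 libraries. HISAT2 2.0.5, StringTie and the build WBcel235 are named, per the submitters' processing notes, while the program that counted reads, its annotation release and its strand setting are not given in the sources used. Reads of genes that overlap or are nearly identical may therefore be assigned uncertainly. Of the 46659 gene rows, 46180 matched 1 gene of Ensembl release 115 by sequence name, which gave symbols, coordinates and summed exon length, while 3 matched several genes and 476 none.

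Counts as deposited were filtered with filterByExpr, scaled by TMM and tested by edgeR's robust quasi-likelihood test (edgeR 4.0.16, R 4.3.3) over all 17365 remaining genes, with Benjamini-Hochberg adjustment and a threshold of 0.05. Alternatives were the replicate number as a block, RLE scaling, no filter, DESeq2 1.42.0, each library or pair left out, and act-1, act-2 and act-3 summed. Deviations from the genotype means had correlations of 0.20, 0.17 and 0.32 in the 3 pairs that share a number, and of -0.24 to 0.059 in pairs that do not. With every same-number correlation over 0.1, the numbers were taken to pair the libraries. The choice to pair comes from the data. Column names of the deposited counts also carry the same numbers in both genotypes, but the labels do not say what a number shares. The labels do not say that replicates were separate cultures, so p-values measure only the spread between these libraries. In the blocked fits it is the spread left after differences between replicate numbers are removed.

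Values in every library are given for members called in either fit and for the member of each sarcomere part with the highest level per length, and for other members only where stated as named after their values were seen or as a summary. The 38 members and the 11 lists of other genes were chosen with earlier results of these data known. The list symbols tmd-1, unc-17, opt-2 and bus-8 were not matched and are not used here.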

Additional observations from a re-analysis of the deposited data

How the results depend on the processing

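In the fit without the replicate block 14 genes of the whole table were called higher and 0 lower, and 0 members and 0 genes of the other lists were called. Without the filter on low counts 4 genes were higher. DESeq2 called 374 higher and 87 lower, with 10 list genes higher. The replicate block gave 446 higher and 251 lower, 5 members, and 12 list genes higher and 1 lower. DESeq2 with the block gave 929 higher and 955 lower, 12 members, and 30 list genes higher and 6 lower. The block with RLE scaling, chosen after seeing the data, gave 429 higher and 237 lower, 3 members, and 12 list genes higher and 1 lower, and the block with the 3 actin copies summed, also chosen then, gave 5 members.

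Blocked calls depended on the pairs. Without pair 1, 9 genes were higher and 2 lower, with 0 members. Without pair 2, 1361 were higher and 1115 lower, with 20 members, and 33 list genes higher and 15 lower. Without pair 3, 160 were higher and 21 lower, with 3 members and 6 list genes higher. The cause of these differences was not tested, and each such fit has fewer libraries. Without the block, fits that left out 1 library called between 1 and 42 genes higher and between 0 and 1 lower, and pat-10 then lay between -0.14 and 0.11. Over all fits that left out a library or pair, whole-table calls ranged from 1 to 1361 higher and from 0 to 1115 lower. Members called ranged from 0 to 20, list genes from 0 to 33 higher and from 0 to 15 lower, and members above 0 from 31 to 37. The median log2 fold change of the 38 genes ranged from 0.18 to 0.40.

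Direction changed, only when a library or pair was left out, for 8 genes and 1 sum. The log2 fold changes ranged from -0.48 to 0.22 for act-4, from -0.19 to 0.018 for unc-97, from -0.074 to 0.95 for tnt-2, from -0.012 to 0.82 for unc-54, from -0.12 to 0.14 for act-2, from -0.060 to 0.095 for unc-112, from -0.20 to 0.11 for pat-10 and from -0.17 to 0.38 for unc-52. With the block, act-4 was at 0.13 without pair 3, unc-112 at 0.028 without pair 2, and pat-10 at 0.091 without pair 2 and 0.014 without pair 3. The log2 ratio of the summed actins ranged from -0.031 to 0.21. For all members summed, the log2 ratio was 0.36 with TMM scaling, 0.37 by library totals and 0.23 as CPM per kilobase. By library totals 2 of the 7 parts, troponins and tropomyosin and regulators of actin filaments, had groups that did not overlap. These comparisons rest on 3 libraries a genotype, replicate 2 was low for most members, and the lowest count of a member in any library was 304. What limits the calls was not tested.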

Other observations

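Genes of other tissues were counted in the same fits. Of 15 tested neuron genes 13 lay above 0 with a median log2 fold change of 0.35, and with the replicate block 5 rose and 0 fell (edgeR, adjusted p under 0.05). These were unc-31 (1.52-fold) and unc-13 (1.31-fold), which act in the release of vesicles, the axon guidance gene unc-33 (1.48-fold), the neuropeptide processing gene egl-3 (1.90-fold) and unc-25 (log2 fold change 0.77), which codes for the enzyme that makes GABA. Of 13 tested intestine genes 8 lay above 0 with a median of 0.12, and 2 rose with the block, the microvillar actin gene act-5 (1.37-fold) and the aspartyl protease gene asp-1 (1.76-fold). Of 13 tested epidermis genes 1 lay above 0 with a median of -0.16, and 0 passed in either edgeR fit. Of 6 tested genes of adults and yolk 6 lay above 0 with a median of 1.84, and 0 passed. These adult genes summed to 4.15, 3.65 and 3.90 CPM in double mutants and 2.01, 1.33 and 2.26 CPM in single mutants.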
